A study of Drosophila melanogaster with 15 samples.

Results

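The CR-named genes are those whose symbol in the deposited table is CR followed by a number, the prefix that the fly annotation gives to a gene with no known protein product. The table of RPKM values (reads per kilobase of transcript and sequencing depth, a level per length) held 113 such transcripts of 100 genes. Of these, 92 genes reached at least 1 RPKM in 3 or more libraries and were kept, each by its most abundant transcript, out of 11257 genes in all. The remaining 8 stayed below that limit. The lowest member had a third-highest value of 1.04 RPKM, and the highest gene left out had 0.951 RPKM.

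RNA was sequenced from heads of individual adult male flies to ask which transcripts respond to amphetamine (AMPH) with and without the dopamine transporter DAT. The 15 libraries fell into 4 groups: *DAT* mutant AMPH (3 libraries), *DAT* mutant vehicle (4), WT AMPH (4) and WT vehicle (4). WT was the isogenic w1118 strain, and the *DAT* mutant was dDATfmn, in which a roo transposon fragment sits in an intron of *DAT*, back-crossed to w1118. Flies aged 7 days were kept for 48 h on agar and sucrose food made with water (vehicle) or with 10 mM AMPH. The labels call the tissue both brain and adult head, and the summed level of 7 photoreceptor markers was 31991 to 58431 RPKM over the libraries. The libraries were made from polyadenylated RNA, and the labels describe them as made from individual flies.

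Genes without a protein product do very different things in the fly. Long non-coding RNAs and hairpin RNAs are transcribed from their own loci, and hairpin RNAs are cut by Dicer-2 into small interfering RNAs. The 7SL RNA is the RNA part of the signal recognition particle, which brings ribosomes to the endoplasmic reticulum. Ribosomal RNA (rRNA) genes lie in tandem repeats in heterochromatin, many damaged copies are scattered around them, and rRNA carries no long poly(A) tail. Pseudogenes are copies of coding genes that have lost their reading frame.

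The label of non-coding RNA held for only some of the members. In a later annotation of the genome, 14 of the 92 were non-coding RNA genes, 6 were rRNA genes or rRNA pseudogenes and 30 were other pseudogenes. Another 3 had become protein-coding genes, 4 had been merged into a protein-coding gene (*Unr*, *sqd*, *Ih* and *Maf1*), and 35 were not matched. They are therefore called CR-named genes here. Of the 35 without a match, 31 lay on the unplaced sequence that the dm3 build collects as chromosome U, where 39 of all 92 members lay, and 12 members lay on the heterochromatin scaffolds. A further limit is that 23 members overlapped another gene of the table, 8 on the same strand and 16 on the opposite one. The sources do not state whether reads were counted by strand, so reads of such a member and its partner cannot be told apart.

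Levels spanned a wide range. The mean over the 15 libraries ran between 0.673 and 1345 RPKM, with a median of 4.79. Only 12 members averaged 50 RPKM or more, and 46 averaged 5 or more. In the fitted libraries most of the summed level came from a pair of genes: *CR32477* and *CR42491* together held 54.4 to 64.0% of the summed RPKM of all members in *DAT* mutant AMPH, 58.8 to 61.3% in the *DAT* mutant vehicle libraries that were fitted, 57.9 to 66.1% in WT AMPH and 53.2 to 62.7% in the WT vehicle libraries that were fitted. In the libraries left out the pair held less, 27.7% in *DAT* mutant vehicle replicate 2 and 48.0% in WT vehicle replicate 1.

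**Figure D1:**
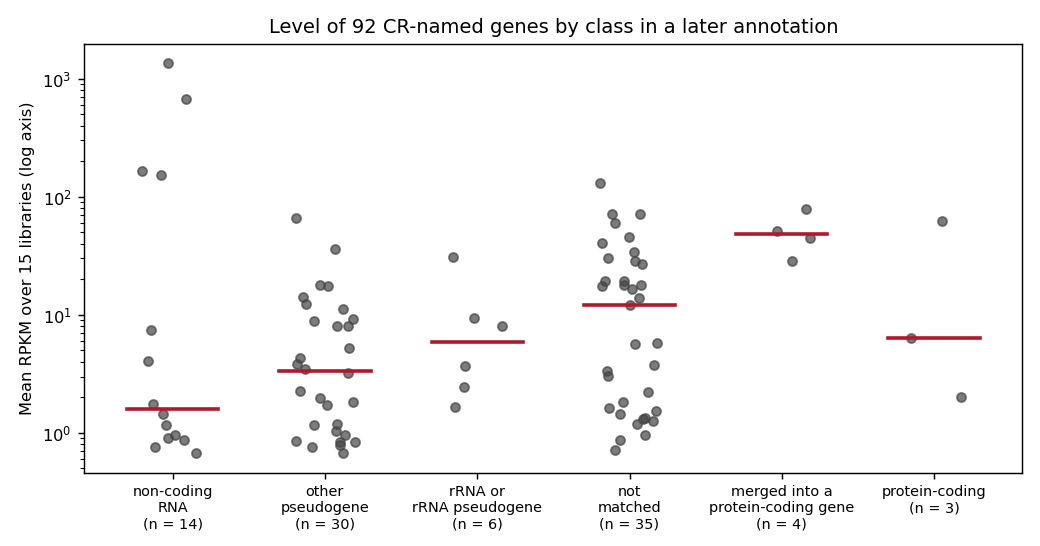
Mean RPKM over 15 libraries (log axis) of each of the 92 CR-named genes, by its class in a later annotation; points are genes and red lines are class medians. The non-coding RNA class holds the highest gene, at 1345 RPKM, while its median is 1.60 RPKM, against 12.2 RPKM for the 35 genes that were not matched.

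The fits used 13 libraries, as the group means that the study lists match only those. Left out were replicate 1 of WT vehicle and replicate 2 of *DAT* mutant vehicle, and their values are given apart. *DAT* mutant vehicle replicate 2 stood apart from the rest: its highest Spearman correlation with a library of its own group was 0.858, against at least 0.971 for each other library, across 17986 transcripts, which are not independent replicates. Depth, if the smallest step between low values is 1 read, was 19.5 to 43.6 M reads for *DAT* mutant AMPH, 11.1 to 46.9 M for *DAT* mutant vehicle, 38.6 to 62.7 M for WT AMPH and 20.7 to 77.7 M for WT vehicle. Tests were made with limma on log2(RPKM + 1), with Benjamini-Hochberg adjustment over all transcripts tested, and a transcript was called at an adjusted p under 0.1. Fold changes are on that scale, which understates the change of low genes. Single flies were the replicates.

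The most abundant member was *CR32477* (3L:226658-230972, dm3, plus strand), which the later annotation lists as the long non-coding RNA CR42862. It stood at 1444, 1888 and 1744 RPKM in *DAT* mutant AMPH, against 1229, 1293 and 1048 RPKM in *DAT* mutant vehicle. All 3 AMPH values lay above the vehicle values of the mutant, and the log2 fold change was 0.50 (SE 0.15, adjusted p = 0.0581). The *DAT* mutant vehicle library that was left out held 435 RPKM, and with all 15 libraries the adjusted p was 0.624. In WT AMPH it stood at 1581, 1154, 1351 and 2092 RPKM, against 1199, 1309 and 1257 RPKM in WT vehicle (1145 in the library left out), so that these groups overlapped. There the log2 fold change was 0.26 (SE 0.22, adjusted p = 0.463). It overlaps *CG16971* by 320 bases on the same strand, and that gene varied with it across the 15 libraries (Pearson r 0.93, a description). *CG16971* had a log2 fold change of 0.22 in the *DAT* mutant (adjusted p = 0.282).

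*CR42491* (X:656648-657843, minus strand) lies wholly inside *RpL22*, which encodes a protein of the large ribosomal subunit, on the same strand. It stood at 779, 649.7, 849.9 and 767 RPKM in WT AMPH, against 587, 526 and 533 RPKM in WT vehicle and 562 RPKM in the WT vehicle library left out. No vehicle library reached the lowest AMPH one, and the gene rose, its log2 fold change being 0.47 (SE 0.14, adjusted p = 0.0668). *RpL22* itself had a log2 fold change of 0.40 in WT (adjusted p = 0.111) and followed *CR42491* across the 15 libraries (r 0.89). In the *DAT* mutant the groups overlapped: *CR42491* stood at 516, 863 and 601 RPKM in AMPH, against 483, 694 and 572 RPKM in vehicle (1143 in the library left out). The log2 fold change there was 0.16 (SE 0.21, adjusted p = 0.646).

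*CR33222* (X:7792469-7795335, minus strand), a pseudogene that shares 1683 bases with *RpS6*, a gene of the small ribosomal subunit, on the same strand, was the other member that rose in WT. It stood at 61.5, 93.6, 88.4 and 74.8 RPKM in WT AMPH, against 61.3, 55.2 and 51.3 RPKM in WT vehicle, where the library left out held 64.3 RPKM. The fitted groups were separate by a narrow margin, and the log2 fold change was 0.49 (SE 0.16, adjusted p = 0.0731), but the left-out library lay inside the range of WT AMPH. In the *DAT* mutant the values lay the other way round, at 53.4, 56.9 and 40.4 RPKM in AMPH against 68.4, 59.4 and 65.7 RPKM in vehicle (91.6 in the library left out). That difference did not pass the test (log2 fold change -0.37, SE 0.14, adjusted p = 0.116). *RpS6* had a log2 fold change of 0.24 in WT (adjusted p = 0.507) and of -0.09 in the *DAT* mutant (adjusted p = 0.744).

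The other abundant members did not pass the test in any comparison. *CR18854* (2L:9787279-9790745, minus strand) is a hairpin RNA gene that shares 1221 bases with *IP3K1* on the opposite strand. It was the steadiest of them, at 118 to 153 RPKM in *DAT* mutant AMPH, 151 to 158 RPKM in *DAT* mutant vehicle, 146 to 184 RPKM in WT AMPH and 147 to 166 RPKM in WT vehicle. *CR32028* (3L:8433161-8435480, minus strand), now part of *Unr*, a gene for an RNA-binding protein that acts in dosage compensation, averaged 75.4 ± 12.6 RPKM in *DAT* mutant AMPH and 78.4 ± 9.23 RPKM in *DAT* mutant vehicle (SD, n = 3 each). In WT it stood at 48.2 to 126 RPKM in the 4 AMPH libraries, against 77.1 to 104 RPKM in the 3 fitted vehicle libraries. The log2 fold changes of *CR32028* were -0.06 in the *DAT* mutant (adjusted p = 0.803) and -0.04 in WT (adjusted p = 0.953).

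*CR42652* (3R:2645855-2646153, minus strand), a copy of the 7SL RNA, was the least steady. It stood at 239, 57.7 and 108 RPKM in *DAT* mutant AMPH, against 101, 13.7 and 30.7 RPKM in *DAT* mutant vehicle. The library of that group left out held 1234 RPKM. In WT it stood at 71.6, 124, 141 and 55.5 RPKM in AMPH, against 37.9, 107 and 96.3 RPKM in vehicle (44.8 in the library left out). The groups overlapped in both strains, and the log2 fold changes were 1.67 (SE 0.69, adjusted p = 0.145) in the *DAT* mutant and 0.31 (SE 0.42, adjusted p = 0.670) in WT. A near-identical gene of the table, *7SLRNA*, had nearly the same values (227, 51.0 and 108 RPKM in *DAT* mutant AMPH, for example), so how reads were split between these copies is uncertain.

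**Figure D2:**
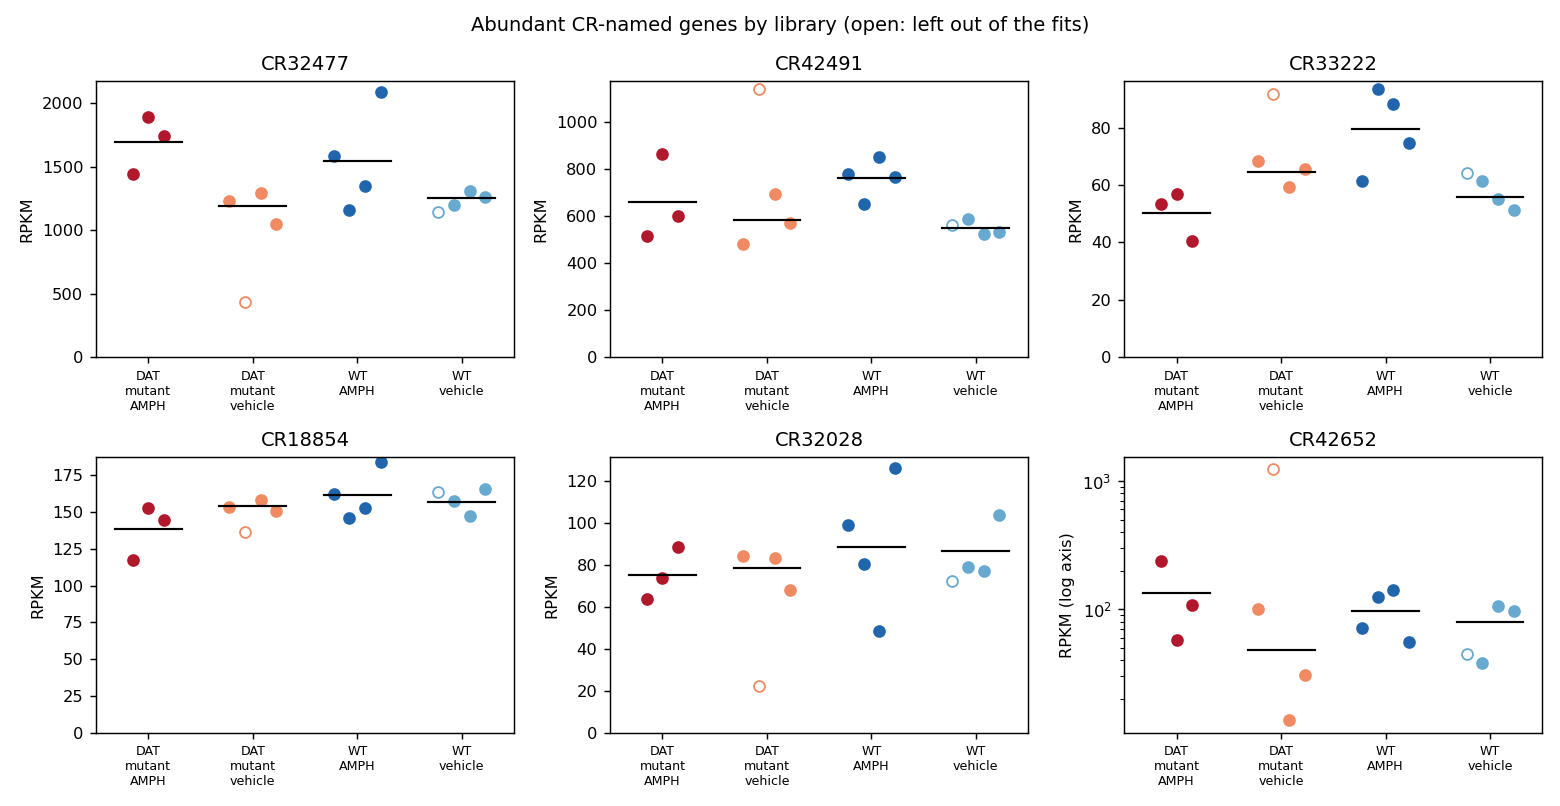
RPKM of 6 CR-named genes in each library by group (*CR42652* on a log axis); filled points were fitted, open points were left out, and lines are means of the fitted libraries. *CR42491* lies higher in every WT AMPH library than in any WT vehicle library, and *CR42652* reaches 1234 RPKM in the *DAT* mutant vehicle library left out.

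In WT, 2 members rose and 1 fell among 79 tested, while over all 17584 transcripts tested 22.0% were called (7.20% higher and 14.8% lower). The gene that fell, *CR30082*, is now listed as protein-coding and lies within *Ranbp11* on the opposite strand. It was outside the rule for named genes and is named here after its values were seen: it stood at 1.30, 0.909, 0.730 and 2.38 RPKM in WT AMPH, against 2.15, 2.64 and 5.30 RPKM in WT vehicle. The groups overlapped, and the log2 fold change was -0.89 (SE 0.30, adjusted p = 0.0831). At an adjusted p under 0.05 none of the 3 was called, and 4 of the 79 members had an unadjusted p under 0.05, against 30.0% of all transcripts tested. Without WT vehicle replicate 3, or without replicate 4, no member was called. Without WT vehicle replicate 2 there was 1, without WT AMPH replicate 2 or 4 there were 2, and without WT AMPH replicate 3 there were 6. In these fits 12.9%, 12.5%, 11.7%, 16.3%, 18.4% and 16.1% of all transcripts tested were called, in that order, against 22.0% in the main fit.

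In the *DAT* mutant, 22 of 78 members tested rose and 0 fell, against 6.71% of all 17483 transcripts tested that were higher and 15.4% that were lower. The rises gathered in a set of 37 members made of the 6 rRNA genes and rRNA pseudogenes and the 31 unmatched genes on unplaced sequence, a grouping formed after the values were seen. In this set 17 of 32 tested rose, with a median log2 fold change of 1.04, and the fold change of each of the 32 was above 0. The groups of 22 of the 78 members tested (28.2%) did not overlap, called or not, against 36.2% of all transcripts tested. Among the members outside the set 5 of 46 rose, with a median of 0.09, beside a median of -0.08 over all transcripts tested. For 2 of those called, *CR41621* and *CR40679*, no *DAT* mutant vehicle library in the fit reached 1 RPKM, so they passed the filter only through the AMPH group. The 17 are not separate pieces of evidence, since the genes of the set varied together between libraries.

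With *DAT* mutant vehicle replicate 2 included, 0 of 82 members tested were called in this comparison, and 2 had an unadjusted p under 0.05. Over all transcripts tested only 1.47% were called in that fit, so the count of 0 is near the background. That library held the highest summed level of the set in the whole series. The summed RPKM of the 37 genes was 555, 617 and 1098 in *DAT* mutant AMPH, against 210.5, 603 and 281 in *DAT* mutant vehicle, and 2336 in the left-out library. In WT it was 718, 448, 556 and 428 in AMPH, against 739, 515 and 174 in vehicle, and 1011 in the WT vehicle library left out. The 3 fitted *DAT* mutant vehicle libraries include low sums, but WT vehicle replicate 4 was lower than each of them. In the fits that left out 1 library each, the number of members called ran between 9 (without *DAT* mutant vehicle replicate 4) and 26 (without replicate 3 of that group). It was also 12 without *DAT* mutant vehicle replicate 1 and 11 without *DAT* mutant AMPH replicate 3. In these fits 12.2%, 18.3%, 16.4% and 13.2% of all transcripts tested were called, in that order, against 22.1% in the main fit.

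Summed levels of cell type markers moved with AMPH in the same fitted libraries. In the *DAT* mutant 4 glial markers summed to 413 to 425 RPKM on AMPH, against 550.2 to 746 RPKM on vehicle, and 5 neuronal markers to 612 to 757 RPKM on AMPH, against 842 to 910.1 RPKM on vehicle. The 7 photoreceptor markers summed to 44331 to 46661 RPKM on AMPH, against 52716 to 55605 RPKM on vehicle, and 5 muscle markers to 480.2 to 580.2 RPKM on AMPH, against 706 to 793 RPKM on vehicle. Among the fitted libraries these 4 lists were lower on AMPH without overlap. The *DAT* mutant vehicle library left out held 396 RPKM of the glial, 341 of the neuronal, 37025 of the photoreceptor and 430 of the muscle markers. Each of these sums lay below every *DAT* mutant AMPH library. The 7 genes listed for fat body overlapped, at 476 to 1006 RPKM on AMPH against 521 to 582 RPKM on vehicle. From most to least abundant they were *Cp1*, *Rfabg*, *Yp3*, *Lsp1beta*, *Lsp2*, *Yp1* and *Yp2*. How specific *Cp1* is to fat body was not checked. In WT the glial and muscle sums were lower on AMPH without overlap, at 528 to 611 RPKM against 649 to 811 RPKM on vehicle for glia, and at 489 to 784 RPKM against 946 to 1360.0 RPKM on vehicle for muscle. The WT sums of the neuronal and photoreceptor markers and of the fat body list overlapped. No listed marker in the table was at 0 in a fitted library. The part of these shifts in the changes of the CR-named genes was not tested, and fewer cells of a type cannot be told apart from less RNA per cell.

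Of the annotated rRNA members, 3 are copies of the 28S rRNA of the large ribosomal subunit and 2 of the 18S rRNA of the small one. *CR40741* (unplaced sequence U:8863772-8864332, plus strand), a 28S pseudogene, stood at 3.88, 11.0 and 17.7 RPKM in *DAT* mutant AMPH, against 1.37, 2.70 and 2.08 RPKM in *DAT* mutant vehicle and 34.6 RPKM in the library left out. It rose, its log2 fold change being 1.78 (SE 0.42, adjusted p = 0.0268), the largest rise of any member called. *CR41609* (U:4570872-4571822, plus strand), another 28S pseudogene, stood at 4.95, 10.1 and 22.3 RPKM in *DAT* mutant AMPH, against 1.79, 3.38 and 2.74 RPKM in vehicle and 42.0 RPKM in the library left out (log2 fold change 1.69, SE 0.42, adjusted p = 0.0321). In both genes all fitted AMPH values lay above the fitted vehicle values, and the left-out vehicle value lay above them all. The third, *CR40596*, was too low to be tested there.

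The 18S members were less separate. *CR41602*, an 18S pseudogene on X heterochromatin, stood at 27.6, 31.1 and 60.0 RPKM in *DAT* mutant AMPH, against 8.77, 33.1 and 13.7 RPKM in *DAT* mutant vehicle and 86.4 RPKM in the library left out. Here *DAT* mutant vehicle replicate 3 lay inside the AMPH range, and the log2 fold change of 1.17 did not pass the test (SE 0.44, adjusted p = 0.114). The summed level of the 18S members over that of the 28S members differed between libraries: it was 3.14, 1.46 and 1.49 in *DAT* mutant AMPH, 2.82, 5.25 and 2.70 in *DAT* mutant vehicle (0.892 in the library left out), 1.19, 2.08, 1.62 and 2.44 in WT AMPH, and 3.42, 2.11 and 1.19 in WT vehicle (2.91 in the library left out).

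Many of the unmatched unplaced genes, though not all, varied with the annotated ones across libraries. *CR41613* (U:9112426-9113000, minus strand) stood at 16.6, 14.8 and 36.5 RPKM in *DAT* mutant AMPH, against 5.04, 6.36 and 5.63 RPKM in *DAT* mutant vehicle. Its vehicle values were the closest together of the 5 genes named for their rise, and its log2 fold change was 1.71 (SE 0.29, adjusted p = 0.00667). The left-out vehicle library held 63.2 RPKM of it. *CR41535* (U:8853389-8854056, plus strand) stood at 13.4, 12.9 and 35.9 RPKM in *DAT* mutant AMPH, against 4.75, 6.54 and 4.31 RPKM in vehicle and 116 RPKM in the library left out (log2 fold change 1.67, SE 0.35, adjusted p = 0.0157). *CR42195* (U:4085793-4086544, minus strand) stood at 38.9, 31.4 and 60.8 RPKM in *DAT* mutant AMPH, against 8.44, 24.4 and 10.4 RPKM in vehicle and 65.7 RPKM in the library left out (log2 fold change 1.62, SE 0.36, adjusted p = 0.0213). With all 4 groups in one fit *CR42195* lost its call at the same fold change (SE 0.77, adjusted p = 0.194). No role is given for these genes, since no annotation used here names them.

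In WT the same 5 genes overlapped between AMPH and vehicle. *CR40741* stood at 11.7, 4.31, 7.48 and 3.47 RPKM in WT AMPH, against 5.38, 4.73 and 2.27 RPKM in WT vehicle (log2 fold change 0.53, SE 0.38, adjusted p = 0.384). *CR41613* stood at 18.3, 12.4, 17.1 and 9.24 RPKM in WT AMPH, against 10.5, 14.7 and 4.38 RPKM in WT vehicle (log2 fold change 0.58, SE 0.36, adjusted p = 0.319). WT vehicle replicate 4 was the lowest WT library for each of the 5. Over the set, 0 of 31 tested were called in WT, against 22.0% of all transcripts tested (7.2% higher and 14.8% lower). The median log2 fold change of the set was 0.30, which turned to -0.13 without WT vehicle replicate 4.

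The 3 most abundant genes of the set, *CR40621* (U:9411518-9412651), *CR41617* (U:9824409-9824915) and *CR40712* (U:9400405-9400910), all on the plus strand, did not pass the test. *CR40621* stood at 105, 127 and 193 RPKM in *DAT* mutant AMPH, against 39.2, 145 and 60.6 RPKM in *DAT* mutant vehicle (268 in the library left out). The vehicle values surrounded the lower AMPH ones, and the log2 fold change was 0.95 (SE 0.42, adjusted p = 0.167). In WT it stood at 122, 74.6, 134 and 93.0 RPKM in AMPH, against 189, 96.3 and 33.3 RPKM in vehicle (280.1 in the library left out). The log2 fold changes of *CR41617* and *CR40712* in the *DAT* mutant were 1.01 (adjusted p = 0.180) and 0.78 (adjusted p = 0.243).

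**Figure D3:**
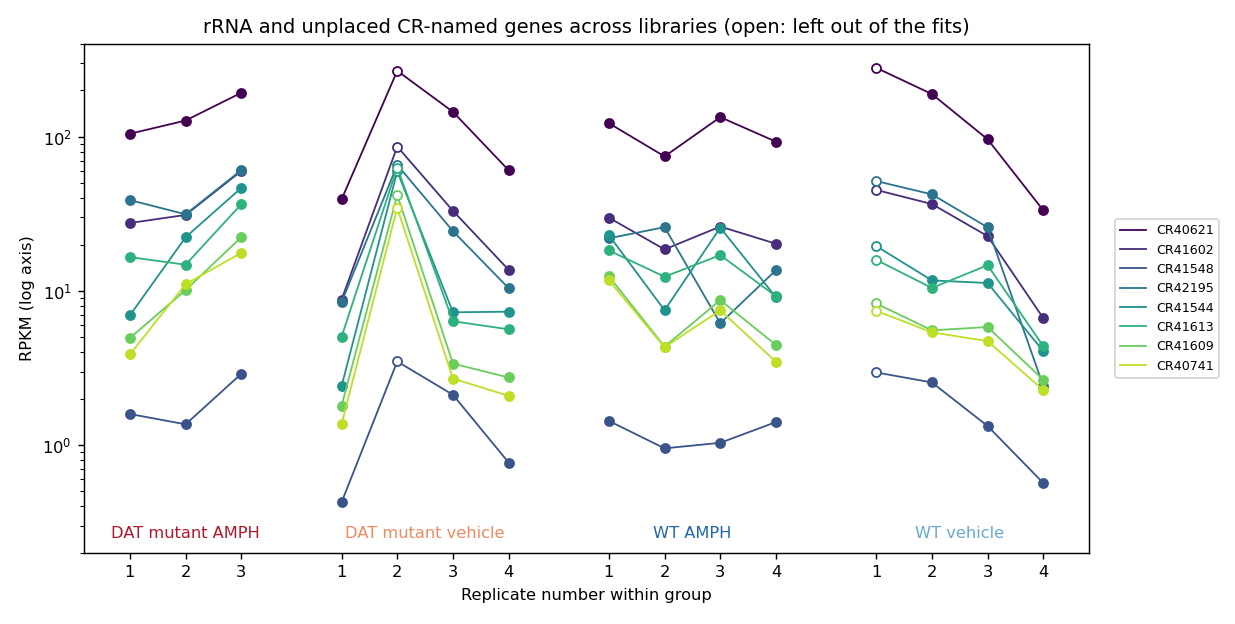
RPKM (log axis) of 8 rRNA or unplaced CR-named genes in each library, by group; lines join the same gene within a group and replicate numbers carry no order, and open points were left out of the fits. Within each vehicle group most genes are high and low in the same libraries, less so in WT AMPH, with peaks in *DAT* mutant vehicle replicate 2 (34.6 RPKM for *CR40741*) and low points in *DAT* mutant vehicle replicate 1 (1.37 RPKM) and WT vehicle replicate 4 (2.27 RPKM).

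How alike these genes were was described by the Pearson correlation of log2(RPKM + 1) with the mean of the annotated 18S or 28S members (the gene itself left out), over the 14 libraries without *DAT* mutant vehicle replicate 2. The points share libraries and depth, and no test was made. The better of the correlations had a median of 0.88 over the 37 genes and 0.19 over the other 55 members, where the highest was 0.58. Of the 31 unmatched unplaced genes, 14 followed the 18S members more closely (median r 0.93, lowest 0.37). The other 17 were closer to the 28S members (median r 0.74, lowest 0.50). The lowest of these lay within the range of members outside the set. In the *DAT* mutant, 2 of 13 tested of those closer to 18S were called higher on AMPH. Of those closer to 28S, 12 of 14 tested were, against 6.71% of all transcripts tested. These counts describe the same libraries again, so they are no evidence of a difference between 18S and 28S copies. *CR40976*, for example, was nearly as close to the one as to the other (r 0.509 with 18S and 0.512 with 28S). *CR40621*, *CR41617* and *CR40712* were among those closer to 18S (r 0.97, 0.96 and 0.97), and *CR41613* and *CR41535* among those closer to 28S (r 0.89 and 0.91).

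The spread within groups was larger in this set than elsewhere. The standard deviation of log2(RPKM + 1) within groups, pooled over the 13 libraries, had a median of 0.58 for the 37 genes, 0.24 for the other 55 members and 0.17 for all 17915 transcripts that passed the filter. Among genes of 5 to 50 RPKM the medians were 0.77 for 16 of the set, 0.25 for 16 other members and 0.16 for 11097 transcripts. Of the other genes on unplaced sequence, 8 were tested in the *DAT* mutant, of which 1 was higher and 2 were lower, with a median log2 fold change of -0.15. The shares over all transcripts tested there were 6.71% higher and 15.4% lower, so counts this small are near the background.

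The 5 members outside the set that rose in the *DAT* mutant were *CR32477*, described above, and *CR31084*, *CR11700*, *CR40190* and *CR42653*, of which *CR11700* is described with the strains. These 4 are named after their values were seen. *CR31084* (3R:22251076-22254130, plus strand), an antisense RNA that overlaps *CG34291* on the other strand by 155 bases, stood at 2.39, 2.30 and 5.57 RPKM in *DAT* mutant AMPH, against 1.78, 0.910 and 1.29 RPKM in *DAT* mutant vehicle (log2 fold change 0.87, SE 0.28, adjusted p = 0.0694). *CG34291* itself rose there, by a log2 fold change of 0.96 (adjusted p = 0.061). The library left out was listed at 0 for *CR31084*. *CR40190* and *CR42653*, pseudogenes that lie close together on 2R heterochromatin and have the same span of 634 bases, had log2 fold changes of 0.40 each (adjusted p = 0.0868 and 0.096). In the fits that left out 1 library each, *CR31084* kept its call in 3 of 6, *CR40190* in 1 of 6 and *CR42653* in 2 of 6.

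**Figure D4:**
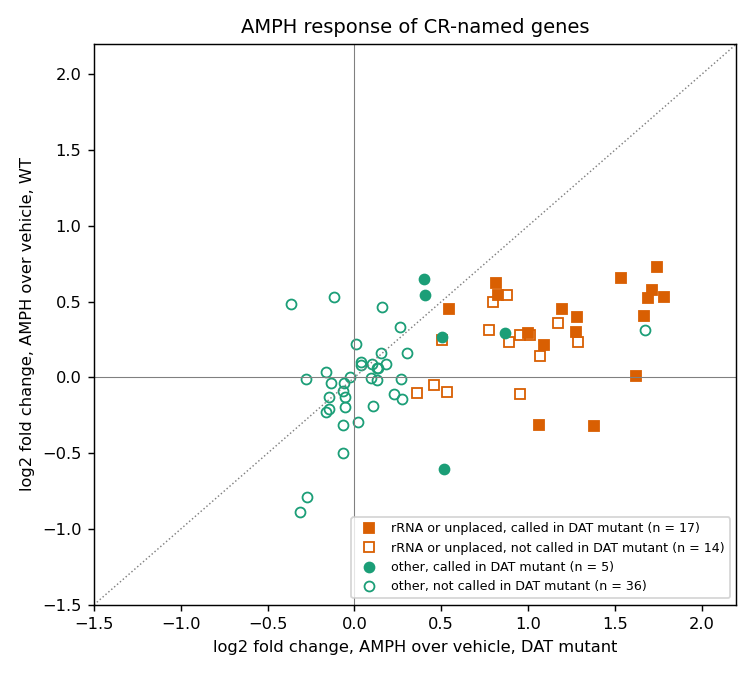
Log2 fold change of AMPH over vehicle in the *DAT* mutant (horizontal) and in WT (vertical) for the 72 CR-named genes tested in both strains; squares are rRNA or unplaced genes, circles the other members, filled symbols were called in the *DAT* mutant, and the dotted line marks equal responses. The 31 squares all lie right of 0, with medians of 1.04 in the *DAT* mutant and 0.30 in WT over the genes of the set tested in each strain, while most circles lie near 0 on both axes.

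The response to AMPH in the *DAT* mutant minus that in WT was called for 0 of 91 members tested, against 0.145% of all 17915 transcripts tested (0.0558% higher and 0.0893% lower). At an unadjusted p under 0.05 there were 4 members, *CR33222*, *CR41535*, *CR11700* and *CR40640*, against 5.21% of all transcripts. *CR33222* had a difference of -0.85 on the log2 scale (SE 0.22, adjusted p = 0.379) and *CR40640* one of 1.70 (SE 0.38, adjusted p = 0.230). A call in the *DAT* mutant without one in WT, as for the 17 genes of the rRNA and unplaced set, was thus not shown to differ between strains. Over that set the median difference was 0.72, and 34 of 36 were above 0, where the median over all transcripts tested was -0.01. These comparisons share their libraries with the others.

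*CR32205* (3L:19415938-19417283, minus strand), a hairpin RNA gene, was called between the strains on both foods. No WT library reached 1 RPKM, so it passed the filter only through the *DAT* mutant and was tested because it was high there. It stood at 2.05, 1.84 and 1.73 RPKM in *DAT* mutant AMPH, against 0.251, 0.244, 0.287 and 0.132 RPKM in WT AMPH. On vehicle it stood at 2.02, 1.15 and 1.08 RPKM in the *DAT* mutant, against 0.089 to 0.130 RPKM in the 3 fitted WT libraries, with 3.23 and 0.083 RPKM in the libraries left out. Every *DAT* mutant library lay above every WT library, over all 15. The values correspond to 93, 39 and 82 reads in *DAT* mutant AMPH and 103, 14 and 13 reads in *DAT* mutant vehicle, against 15, 14, 12 and 9 reads in WT AMPH and 10, 2 and 4 reads in WT vehicle, if 1 step is 1 read and the exons are those of the later annotation (1085 bases).

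*CR32205* was higher in the *DAT* mutant by a log2 fold change of 1.23 on AMPH (SE 0.13, adjusted p = 0.00244) and of 1.11 on vehicle (SE 0.21, adjusted p = 0.0255). It was tested only because it was high there, so these p values are no separate support for the difference. The ratio of the mean RPKM values was 8.20 on AMPH and 13.3 on vehicle, where the WT libraries held 10 reads or fewer. With all 15 libraries the vehicle comparison gave 1.32 (adjusted p = 0.0659). Between AMPH and vehicle it did not pass the test in the *DAT* mutant (log2 fold change 0.27, SE 0.18, adjusted p = 0.337). *CG33255*, which shares 1135 bases with it on the opposite strand, was at 0.560, 0.734 and 0.627 RPKM in *DAT* mutant AMPH, against 0.142, 0.025, 0.270 and 0.021 RPKM in WT AMPH, and was too low to be tested. The mutation is on 2R and *CR32205* on 3L, and what else of the donor chromosomes remains in the back-crossed mutant cannot be told apart from the loss of DAT.

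*CR42201*, a pseudogene on Y heterochromatin (YHet:307129-307365, minus strand), was the member that was lower in the *DAT* mutant. It stood at 0.706, 0.216 and 0.484 RPKM in *DAT* mutant AMPH, against 1.46, 2.31, 1.42 and 1.62 RPKM in WT AMPH. These values rest on 7, 1 and 5 reads, against 19, 29, 13 and 24, and the log2 fold change was -0.88 (SE 0.17, adjusted p = 0.0322). No *DAT* mutant AMPH library reached 1 RPKM, so *CR42201* passed the filter only through WT AMPH and was tested because it was high there. On vehicle it stood at 0.270, 0.753 and 0 RPKM in the *DAT* mutant, against 0.893, 1.63 and 1.49 RPKM in WT, with 0.352 and 1.90 RPKM in the libraries left out, and it did not pass the filter. All *DAT* mutant libraries were again on one side of all WT libraries. Without a filter the vehicle comparison gave -0.82 (adjusted p = 0.106). The other members on Y heterochromatin were *CR41504*, at 0.818 to 1.30 RPKM in *DAT* mutant AMPH against 0.671 to 1.97 RPKM in WT AMPH, and *CR41506*, at 0.309 to 1.04 RPKM against 1.03 to 1.65 RPKM. Neither passed the test on AMPH (adjusted p = 0.977 and 0.216).

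On vehicle 1 of 74 members tested was called between the strains, *CR32205*, against 8.45% of all transcripts tested (3.87% higher and 4.59% lower in the *DAT* mutant). The groups of 9 of the 74 members (12.2%) did not overlap there, called or not, against 24.8% of all transcripts tested. On AMPH 3 members were higher and 1 was lower of 83 tested, against 5.54% of all transcripts tested (2.21% higher and 3.32% lower). Without *DAT* mutant AMPH replicate 2, or without replicate 3, that count was 0 (*CR42201* had an adjusted p of 0.132 and 0.146). In those fits 2.05% and 1.52% of all transcripts tested were called, so the count of 0 is near the background. Without *DAT* mutant vehicle replicate 1 or 4 the count on vehicle was 0, since *CR32205* then fell below the filter. There 5.42% and 3.09% of all transcripts tested were called. On AMPH *CR40640* (U:9660271-9660839, plus strand), of the rRNA and unplaced set, stood at 3.57, 3.33 and 9.23 RPKM in the *DAT* mutant, against 1.69, 2.13, 1.27 and 1.82 RPKM in WT (log2 fold change 1.11, SE 0.29, adjusted p = 0.0843). Between the strains it lost the call without any 1 of the 7 libraries, with adjusted p values between 0.106 and 0.157. On vehicle *CR40640* lay lower in the *DAT* mutant, at 1.65, 0.784 and 1.42 RPKM against 2.38, 2.71 and 2.10 RPKM in WT (log2 fold change -0.59, SE 0.19, adjusted p = 0.131), while the *DAT* mutant library left out held 18.3 RPKM. Within the *DAT* mutant *CR40640* was among the 17 genes that rose on AMPH (log2 fold change 1.38, SE 0.32, adjusted p = 0.0244). Without WT vehicle replicate 4, 6 members of the rRNA and unplaced set were called lower in the *DAT* mutant on vehicle. In that fit 7.15% of all 17362 transcripts tested were called, 650 of them lower. The library dropped there had the lowest sum of the set in WT, so the count hangs on 1 library.

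*CR11700* (X:6176311-6177608, minus strand), now listed as protein-coding, was higher in the *DAT* mutant on AMPH with overlapping groups. It stood at 7.70, 12.5 and 11.8 RPKM in *DAT* mutant AMPH, against 1.98, 2.66, 7.81 and 2.16 RPKM in WT AMPH (log2 fold change 1.46, SE 0.36, adjusted p = 0.0782). WT AMPH replicate 3 was apart from the rest of its group, and without it the adjusted p was 0.0032. Between the strains on AMPH *CR11700* kept its call in only 1 of 7 fits that left out 1 library each (adjusted p up to 0.28). On vehicle it stood at 6.24, 7.50 and 7.31 RPKM in the *DAT* mutant, against 5.55, 5.15 and 5.30 RPKM in WT. Within the *DAT* mutant *CR11700* was higher on AMPH than on vehicle (log2 fold change 0.52, SE 0.17, adjusted p = 0.0795). That call was kept in 1 of 6 fits that left out 1 library each (adjusted p up to 0.241). Its neighbour *CR32745* (X:6174266-6174785, minus strand), a pseudogene, was also highest in replicate 3 within WT AMPH, at 3.70, 2.45, 9.30 and 2.74 RPKM, against 10.4, 8.09 and 5.24 RPKM in WT vehicle, and did not pass the test there (log2 fold change -0.79, SE 0.38, adjusted p = 0.199). Both were named after their values were seen.

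**Figure D5:**
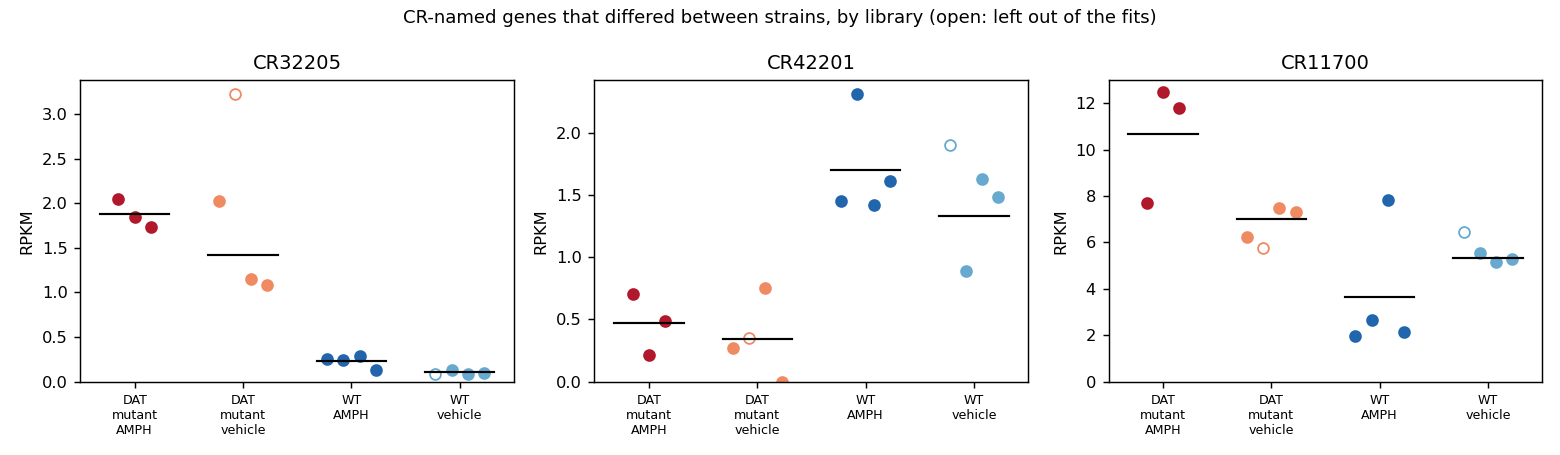
RPKM of *CR32205*, *CR42201* and *CR11700* in each library by group; filled points were fitted, open points were left out, and lines are means of the fitted libraries. *CR32205* is at 1.08 RPKM or more in every *DAT* mutant library and at 0.287 RPKM or less in every WT library, and *CR42201* at 0.753 RPKM or less against 0.893 RPKM or more.

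Other non-coding RNA genes of the table, chosen by name (small nucleolar, small nuclear, transfer and micro RNA genes, their hosts and known long ones), numbered 521, of which 288 passed the same filter. Of 177 tested in the *DAT* mutant 26 rose and 6 fell on AMPH, with a median log2 fold change of 0.20. Over all transcripts tested there, 6.71% were higher and 15.4% lower. Of 212 tested in WT 32 rose and 5 fell, with a median of 0.41. Over all transcripts tested in WT, 7.2% were higher and 14.8% lower. The list holds related copies, and genes along with their hosts, so its counts are not independent. *Uhg2*, a host of small nucleolar RNAs, rose by 0.61 in the *DAT* mutant (adjusted p = 0.053) and by 0.66 in WT (adjusted p = 0.048), on the log2 scale.

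A gene that is now named *CR10102* stands in the table as *CG10102* and is no member by name. It stood at 197, 243 and 327 RPKM in *DAT* mutant AMPH against 19.2, 20.6 and 13.3 RPKM in *DAT* mutant vehicle (40.2 in the library left out), and at 317, 256, 159 and 161 RPKM in WT AMPH against 64.0, 118 and 62.4 RPKM in WT vehicle (58.3 in the library left out). It rose in both strains, its log2 fold change being 3.77 (SE 0.21, adjusted p = 5.89e-05) in the *DAT* mutant and 1.45 (SE 0.31, adjusted p = 0.0188) in WT, and the difference between them was 2.32 (SE 0.42, adjusted p = 0.083). None of the 92 members rose by as much.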

How the data were processed

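RNA-seq libraries of polyadenylated RNA were sequenced on an Ion Torrent instrument. The authors mapped the reads to dm3 with tmap in Torrent Suite 4.4.3 and deposited RPKM values per transcript, which are not read counts. How multiply mapped reads were treated, and whether strand was used, is not given in the sources used here, and both bear on rRNA copies and overlapping genes. The single-library files equalled the series table in all 15 cases.

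The 13 libraries fitted were those whose mean of log2(rounded RPKM + 1) equals the group means of the study's supplementary table, to within 4.98e-05. Models were fitted in R 4.3.3 with limma 3.58.1 (empirical Bayes moderation with a trend) on log2(RPKM + 1), over transcripts with at least 1 RPKM in 3 or more fitted libraries, with Benjamini-Hochberg adjustment. The members and lists were chosen with earlier results of these data known. Members were named if they were among the 8 with the highest mean RPKM, among the 5 largest rises or falls called without overlap in a comparison, or called in the difference between responses. Classes come from Ensembl gene IDs (51 members) and RefSeq synonyms (6), by name only. No sequence is shown. Python 3.11.15, numpy 2.4.6, pandas 2.3.3 and matplotlib 3.10.9 were used. The code was tested on simulated data. The alternatives tried were a fit of all 15 libraries, fits without 1 library each, no filter, a mean of at least 5 RPKM, a pseudocount of 0.1, median centring, quantile normalization, one transcript per gene, an adjusted p under 0.05, all 4 groups in one fit and the replicate number as a block.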

Additional observations from a re-analysis of the deposited data

Results flagged for a closer look

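Among 51 sets of 4 libraries (the 17 named members in WT AMPH, WT vehicle and *DAT* mutant vehicle), 6 held a library far from the other 3 by Dixon's test. All 6 were *DAT* mutant vehicle replicate 2, which was left out of the fits. The nominal rate of about 1 in 20 does not apply to these sets. Members were in part named from fits without that library, and genes of the rRNA and unplaced set varied together. It held 1234 RPKM of *CR42652*, 34.6 of *CR40741*, 63.2 of *CR41613*, 42.0 of *CR41609*, 116 of *CR41535* and 18.3 of *CR40640*, each above the highest of the other *DAT* mutant vehicle libraries. Of these genes *CR42652* is a 7SL RNA copy, *CR40741* and *CR41609* are 28S rRNA pseudogenes and the other 3 lie on unplaced sequence. The same library was low for *CR32477*, at 435 RPKM.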

How the results depend on the processing

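Depth limits the low members most: a transcript of 1 kilobase at 1 RPKM rests on 11.1 reads in the shallowest library. With all 15 libraries, 0 members were called on AMPH in the *DAT* mutant, beside 258 transcripts (1.47% of all tested). In WT 5 members were called, beside 5203 transcripts (29.5%). Transcripts called were 189 between strains on vehicle and 8 for the difference between responses. *CR41619* and *CR40734* then turned to -0.22 and -0.0034 in the *DAT* mutant. The cause was not tested.

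With one transcript per gene fewer transcripts were tested. Then 1902 were called on AMPH in the *DAT* mutant (19.1% of those tested), 1780 in WT (17.7%), 740 between strains on vehicle (7.44%) and 586 on AMPH (5.84%). In the main fits the shares were 22.1%, 22.0%, 8.45% and 5.54% in that order. At an adjusted p under 0.05 the transcripts called numbered 2551, 2458, 793 and 549 in that order, and the members called 9, 0, 1 and 2. Quantile normalization gave 1 member in WT, beside 20.6% of all transcripts tested. A mean of at least 5 RPKM gave 0 members between strains on vehicle (8.41% of all transcripts) and 1 on AMPH (4.62%). *CR32205* was then not tested. One fit of all 4 groups gave 12 members in the *DAT* mutant (19.8% of all transcripts) and 2 between strains on vehicle (7.70%). It gave 1670 transcripts between strains on AMPH. Of all transcripts called, 30.4% were higher on AMPH in the *DAT* mutant, but 50.6% after median centring, and 32.7% and 50.9% in WT.

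Replicate numbers did not pair the samples: same-numbered libraries had correlations between -0.453 and 0.143. With the replicate number as a block, transcripts called were 1774 in the *DAT* mutant, 75 between strains on vehicle and 109 on AMPH, and 0 members were called between strains on AMPH, while *CR32205* had an adjusted p of 0.119 there and of 0.292 on vehicle.

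With each library left out, members called numbered 9 to 26 (*DAT* mutant AMPH against vehicle), 0 to 6 (WT AMPH against vehicle), 0 to 7 between strains on vehicle, 0 to 5 on AMPH, and 0 to 1 for the difference between responses. Transcripts called numbered, in that order, 2128 to 4015, 2048 to 4677, 537 to 1293, 265 to 1084 and 7 to 44. *CR32205* passes the filter through the *DAT* mutant alone. It was called in all 3 fits on vehicle and all 4 on AMPH that tested it (adjusted p at most 0.0796 and 0.00899). Without any 1 *DAT* mutant library it fell below the filter, so these fits cannot show that its call is stable. *CR32477* kept its call in 2 of 6 fits, *CR42491* in 3 of 7, *CR33222* in 1 of 7 and *CR42201* in 5 of 7.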
